A study of Mus musculus with 15 samples.

Results

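The expression of 10 genes for the synthesis, reception, uptake and clearance of prostaglandins was followed in mouse cumulus cells, the somatic cells around the oocyte. They were chosen by name, for their role in the pathway, and were Ptgs1, Ptgs2, Ptges, Ptges2, Ptges3, Ptger2, Ptger4, Ptgfr, Hpgd and Slco2a1. The array held 15 probes for them, among 39429 gene probes for 22074 named genes. Of the 10 genes, 9 were also in the authors' table of log2 values, Ptger4 being the exception.

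Prostaglandins are short-range lipid signals made from arachidonic acid, which phospholipases release from membranes. The cyclooxygenases encoded by Ptgs1 and Ptgs2 turn arachidonic acid into prostaglandin H, and the synthases encoded by Ptges, Ptges2 and Ptges3 turn that into prostaglandin E, which acts through the receptors of Ptger2 and Ptger4, while Ptgfr encodes the receptor of prostaglandin F. The carrier Slco2a1 takes prostaglandins into cells and Hpgd oxidises them there, which ends the signal. In the ovulating follicle, prostaglandin E made under the gonadotropin surge acts on the cumulus, and mice without Ptgs2 or Ptger2 are known for poor cumulus expansion and low fertility.

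Cells came from complexes of B6CBAF1/J mice at 3 stages, with 5 arrays each, and according to the methods each array held cells pooled from several mice. NC1 denotes juvenile mice of 3 weeks, with unexpanded complexes and incompetent oocytes in prophase I. C1 denotes adults of 8 weeks, with unexpanded complexes and competent oocytes in prophase I. C2 denotes adults of 8 weeks that were superovulated with equine and human chorionic gonadotropins, with expanded complexes taken from the oviduct, dispersed by hyaluronidase, and oocytes in metaphase II. Age thus differs along with stage from NC1 to C1, while gonadotropins, the oviduct and hyaluronidase come with the step from C1 to C2, and within each step these cannot be told apart. The p-values measure the spread between pools, and in pooled cells fewer cells of a type and less RNA per cell cannot be told apart.

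Between 18366 and 24493 gene probes per array were well above background. The granulosa and cumulus markers (Foxl2, Inha, Amh, Amhr2, Fshr, Cyp19a1, Nr5a2, Gja1) were above background at every stage for 8 of 8 genes. A single array stood apart. C1 replicate 4 had the most probes above background and was the highest of the C1 arrays for 5 of 6 cumulus expansion genes, as Ptx3, a protein of the expanded matrix, stood at 0.81 there against -5.60 to -4.30 on the other 4 arrays. For Ptgs2, Ptger2, Hpgd, Slco2a1 and Tnfaip6, where this array was the highest or lowest of C1, values without it are given too. It was also the highest of C1 for the brightest probes of Ptges and Ptges3, where the log2 difference C2 minus C1 without it was -0.92 and -0.20.

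The promoters of 5 members with large differences between stages are shown first, as the stretch where transcription of each gene starts. Each runs 5′ to 3′ along the gene's own strand, from 250 bases before to 50 bases after its start in RefSeq (build GRCm38.p6). Capitals mark the letters of 6 motifs searched on both strands, which were the core TGACG of the cAMP response element, the E-box CACGTG, the C/EBP pattern TTNNGNAA, the RUNX site TGTGGT, the NR5A site AAGGTCA and the TATA box TATAAA. Ptgs2 lies at chr1:150099781-150100080 (plus strand), Ptger2 at chr14:44987861-44988160 (plus strand), Ptgfr at chr3:151837479-151837778 (minus strand), Hpgd at chr8:56294302-56294601 (plus strand) and Slco2a1 at chr9:103008237-103008536 (plus strand).
Ptgs2: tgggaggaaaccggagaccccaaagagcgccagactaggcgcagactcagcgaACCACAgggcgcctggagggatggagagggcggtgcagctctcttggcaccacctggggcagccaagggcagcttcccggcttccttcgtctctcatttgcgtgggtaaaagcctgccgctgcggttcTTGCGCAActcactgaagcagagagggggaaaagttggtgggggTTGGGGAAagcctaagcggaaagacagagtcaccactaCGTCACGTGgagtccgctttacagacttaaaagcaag
Ptger2: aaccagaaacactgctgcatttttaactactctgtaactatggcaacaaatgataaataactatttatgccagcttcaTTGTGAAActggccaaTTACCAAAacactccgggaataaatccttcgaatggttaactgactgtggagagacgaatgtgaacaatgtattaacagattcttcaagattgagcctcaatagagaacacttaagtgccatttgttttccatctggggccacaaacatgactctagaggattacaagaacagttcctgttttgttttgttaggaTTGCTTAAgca
Ptgfr: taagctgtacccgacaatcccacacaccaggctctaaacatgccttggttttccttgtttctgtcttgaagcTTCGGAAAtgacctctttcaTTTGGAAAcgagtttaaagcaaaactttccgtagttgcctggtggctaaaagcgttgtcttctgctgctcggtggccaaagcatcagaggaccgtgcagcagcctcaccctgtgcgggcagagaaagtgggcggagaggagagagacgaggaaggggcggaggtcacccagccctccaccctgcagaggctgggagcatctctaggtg
Hpgd: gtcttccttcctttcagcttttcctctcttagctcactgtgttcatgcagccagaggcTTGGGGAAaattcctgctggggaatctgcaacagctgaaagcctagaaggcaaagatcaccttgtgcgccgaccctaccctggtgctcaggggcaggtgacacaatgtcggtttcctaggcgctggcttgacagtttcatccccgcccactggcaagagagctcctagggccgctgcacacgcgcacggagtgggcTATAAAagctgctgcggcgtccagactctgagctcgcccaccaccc
Slco2a1: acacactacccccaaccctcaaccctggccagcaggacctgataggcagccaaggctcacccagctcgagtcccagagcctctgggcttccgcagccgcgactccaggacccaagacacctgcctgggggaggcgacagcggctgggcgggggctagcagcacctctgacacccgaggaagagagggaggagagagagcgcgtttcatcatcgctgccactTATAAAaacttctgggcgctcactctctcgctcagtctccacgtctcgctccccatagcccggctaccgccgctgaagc

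The Ptgs2 promoter held 4 of the 6 motifs, more than any other member's. Its cAMP response core (as CGTCA, from base 14 after the start) and E-box (from base 17) overlapped, its C/EBP patterns began at -69 and -25, and its RUNX site (as ACCACA) at -197. Among 32851 mouse promoters of this length, 20.8% held the cAMP response core, 7.15% the E-box, 40.7% the C/EBP pattern, 16.8% the RUNX site, 4.72% the NR5A site and 13.6% the TATA box. Ptger2 had 3 C/EBP patterns, Ptgfr 2 and Hpgd 1, and a TATA box stood at -29 in Slco2a1 and at base 5 after the start in Hpgd. Among the members not printed, Ptges and Ptges2 held a C/EBP pattern, Ptges2 an E-box and Ptges3 the cAMP response core, whereas Ptgs1 and Ptger4 held none of the 6, and no member held the NR5A letters. These matches are letters in a window, not sites of binding.

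All values below are log2 signals of a probe minus the median of its array over the valid probes, so that 0 is the signal of a typical detected probe. Arrays are given in the order of replicates 1 to 5. A level can be compared between stages for 1 probe, but not between probes. Valid probes were those well above background on at least 4 of 5 arrays of each stage, which held for 17323 probes and for 7 of the 10 genes. Ptgs2 and Ptgfr entered only a wider set of 20844 probes, above background on 4 of 5 arrays of at least 1 stage, and Ptger4 neither. A change was called at an adjusted p under 0.01 over all probes of the set.

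**Figure D1:**
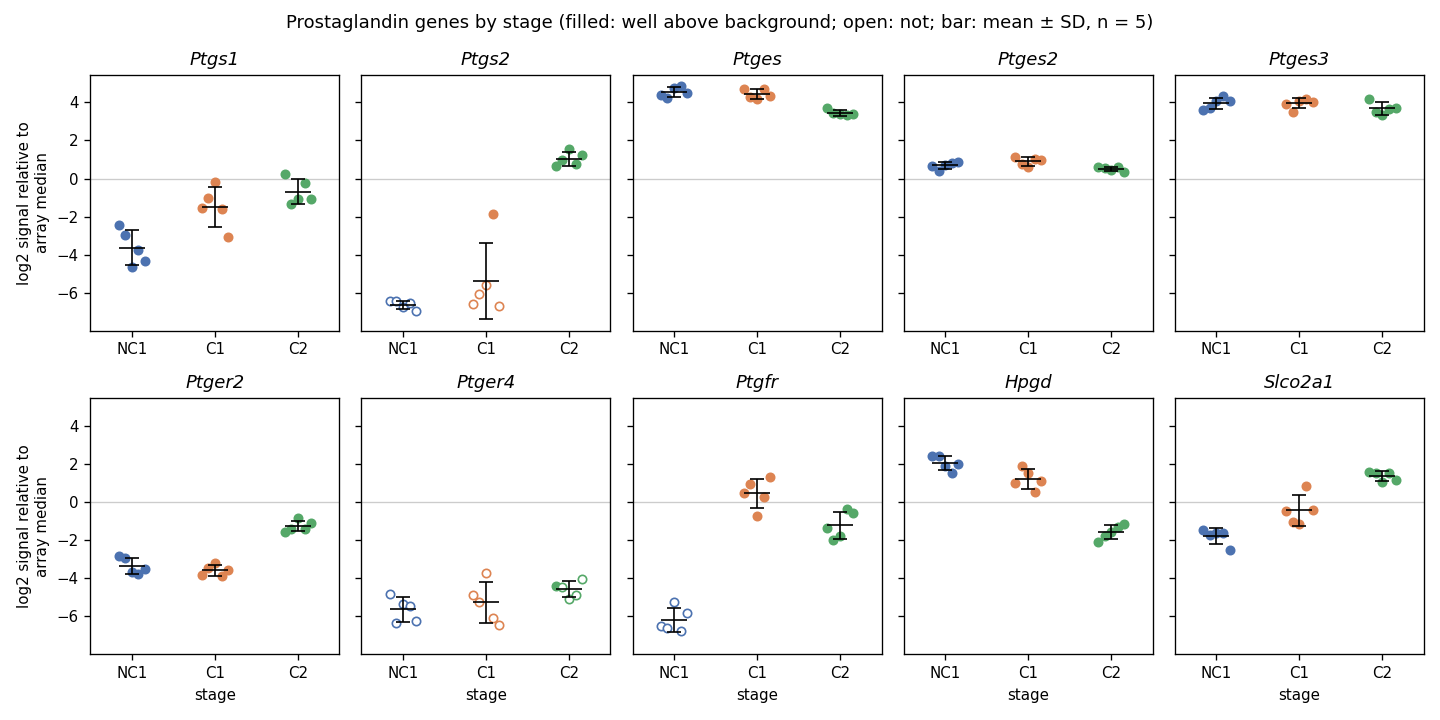
Log2 signal relative to the array median for the 10 prostaglandin genes (probe with the highest mean), by stage, with points for single arrays (filled where well above background, open where not) and bars for the mean ± SD of 5 arrays. Ptgs2 is above background on all C2 arrays and on 1 earlier array, and Ptgfr on all C1 and C2 arrays but on no NC1 array; levels are not comparable between panels.

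Relative to C1, more signal was found at C2 for the inducible cyclooxygenase, a prostaglandin E receptor and the carrier, and less for the inducible synthase, the prostaglandin F receptor and the clearing enzyme. The prostaglandin F receptor was nonetheless higher at C2 than at NC1. Counted over the 7 genes valid at every stage, 0 were called between NC1 and C1, where 2.52% of all probes were. Between C1 and C2, 4 were called (Ptger2 and Slco2a1 higher, Ptges and Hpgd lower), where 47.6% of all probes were, and between NC1 and C2 5 were called, with Ptgs1, which was higher, added, where 51.5% of all probes were. In the wider set of 9 genes, the counts were 1 (Ptgfr), 6 and 7, where 2.94%, 48.7% and 52.4% of the probes were called. These last counts are a description only, since Ptgs2 entered that set through C2 and Ptgfr through C1 and C2, the stages where each was high. Over any stage 5 of 7 were called, where 51.6% of the probes were. In the wider set 7 of 9 were, where 52.4% of the probes were, which is again a description only. The groups did not overlap for 1 of the 7 genes between NC1 and C1 (Slco2a1), 4 between C1 and C2 and 5 between NC1 and C2, where this held for 5.98%, 43.9% and 48.9% of all probes. Since about as many probes as not were called at C2, these counts do not set the pathway apart from other genes. Both successive comparisons share the C1 arrays.

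Of the cyclooxygenases, Ptgs2, the inducible form, exhibited the largest difference between stages. Its 5 NC1 arrays stood at -6.45, -6.46, -6.76, -6.56 and -6.96, none above background. Its C1 arrays stood at -6.61, -6.09, -5.57, -1.88 and -6.73, of which only the fourth was above background. Its C2 arrays stood at 0.66, 0.99, 1.56, 0.75 and 1.22, all above background. Every C2 array was thus higher than every earlier array, and the earlier arrays stayed below background except for C1 replicate 4. In intensity, NC1 ranged from 11.3 to 15.9 and C2 from 2218 to 4427. This probe was printed on 10 spots per array, and in C1 replicate 4 all 10 were above background, from 353.2 to 399.8 (coefficient of variation 3.30%), whereas none was on any other C1 array.

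Because NC1 gives only an upper limit, the C2 signal was at least 54.2-fold higher than at NC1, a log2 bound of 5.76 that became 4.49 with normexp background correction. Against C1 the fitted log2 difference was 6.41 (95% interval 4.98 to 7.84), a value that takes in arrays below background and is no bound. No p is given for these differences, because the probe was kept for its C2 signal. Without C1 replicate 4 it was 7.29, and the fold at least 42.2. C1 minus NC1 was 1.26 (interval -0.17 to 2.69), and 0.39 without C1 replicate 4. Since C1 replicate 4 was the only array of NC1 and C1 above background, these values are a description and no p is given. Within the 4 slides, each of which held all stages, C2 minus C1 lay between 2.75 and 8.28.

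Ptgs1, the constitutive cyclooxygenase, was above background on all 15 arrays. It stood at -2.45, -2.98, -4.64, -3.74 and -4.34 at NC1, at -1.55, -1.02, -0.19, -1.63 and -3.09 at C1, and at 0.22, -1.32, -1.08, -0.25 and -1.06 at C2. The mean ± SD (n = 5) was -3.63 ± 0.91 for NC1, -1.49 ± 1.06 for C1 and -0.70 ± 0.65 for C2. Neighbouring stages overlapped, while all C2 arrays lay above all NC1 arrays. Ptgs1 rose 7.63-fold from NC1 to C2 (log2 2.93, interval 1.89 to 3.97, adjusted p = 6.66e-05). Neither step alone was called, with 2.14 from NC1 to C1 (SE 0.49, adjusted p = 0.0155) and 0.80 from C1 to C2 (SE 0.49, adjusted p = 0.178). The first step was called without NC1 replicate 1 (2.43, adjusted p = 0.00807) or C1 replicate 5 (2.53, adjusted p = 0.00280), and within slides it ran from -0.11 to 3.85. It was also called with scaling by the median of all probes (2.03, adjusted p = 0.00184) or by spike-in probes (2.29, adjusted p = 5.18e-05). The deposited table gave a call too (2.03, adjusted p = 0.001865).

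Ptges, the inducible prostaglandin E synthase of membranes, moved the other way from Ptgs2 at C2. Its brighter probe stood at 4.37, 4.24, 4.75, 4.84 and 4.49 at NC1, at 4.68, 4.29, 4.16, 4.72 and 4.36 at C1, and at 3.71, 3.45, 3.40, 3.33 and 3.38 at C2. NC1 and C1 intermingled, and all C2 arrays lay below them. Ptges fell 1.99-fold from C1 to C2 on this probe (log2 -0.99, interval -1.29 to -0.69, adjusted p = 1.37e-05) and 5.65-fold on the dimmer probe (log2 -2.50, interval -2.78 to -2.21, adjusted p = 2.43e-10). The dimmer probe had mean ± SD (n = 5) values of 0.64 ± 0.08 for NC1, 0.42 ± 0.33 for C1 and -2.08 ± 0.13 for C2, and the probes thus agreed in direction but not in size. Neither probe was called between NC1 and C1. The fall of the brighter probe was -0.68 (adjusted p = 0.0208) when arrays were scaled by the median of all probes, and no longer called.

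Ptges2 and Ptges3, the constitutive synthases, differed least. Ptges2 had mean ± SD (n = 5) values of 0.69 ± 0.19 for NC1, 0.90 ± 0.22 for C1 and 0.51 ± 0.11 for C2. Its difference of -0.39 from C1 to C2 (interval -0.65 to -0.14, adjusted p = 0.0108) was just outside the threshold, and was called under 5 alternatives, such as quantile normalization (-0.46) or without C1 replicate 3 (-0.47). Over all 29 alternatives this difference ran from -0.54 to -0.08. The ranges overlapped, from 0.59 to 1.14 at C1 and from 0.36 to 0.62 at C2. Ptges3, also known as the Hsp90 co-chaperone p23, had 4 probes, and by its brightest it was 3.95 ± 0.30 for NC1, 3.95 ± 0.26 for C1 and 3.69 ± 0.33 for C2 (SD, n = 5), with the last step not called (C2 minus C1 -0.26, interval -0.64 to 0.11, adjusted p = 0.218). The other 3 probes gave C2 minus C1 of -0.57, -0.54 and -0.48, of which only the first was called (adjusted p = 0.00253, against 0.0355 and 0.0169). For C2 minus NC1 these probes gave -0.65 (adjusted p = 0.000749), -0.62 (adjusted p = 0.0171) and -0.55 (adjusted p = 0.00659). The first and last of these were called, the first without overlap of the groups. The brightest probe was not called there (-0.27, adjusted p = 0.200). All 4 probes were lower at C2 on average, by less than the fall of either Ptges probe, but the brightest of Ptges3 was 0.05 higher at C2 than at C1 when all probes set the scale.

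**Figure D2:**
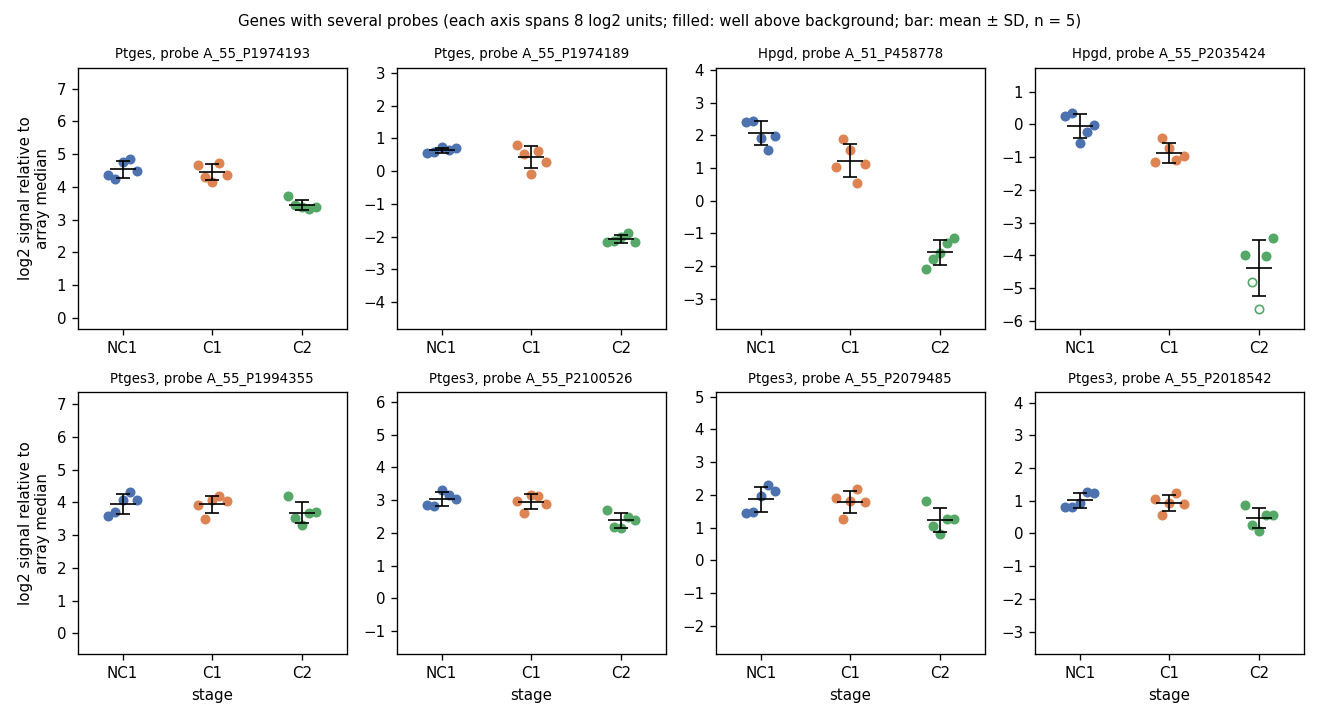
Log2 signal relative to the array median by stage for each probe of Ptges, Hpgd and Ptges3, with points for single arrays (open where not well above background) and bars for the mean ± SD of 5 arrays, every vertical axis spanning the same number of log2 units. Both Ptges probes and both Hpgd probes are lower at C2 than at the other stages without overlap, and the dimmer probe of each shows the larger drop. The dimmer Hpgd probe is above background on only 3 of 5 C2 arrays, so the size of its drop is uncertain.

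Among the receptors, Ptger2, which couples prostaglandin E to cAMP, rose at C2. It stood at -2.84, -2.94, -3.67, -3.78 and -3.51 at NC1, at -3.82, -3.45, -3.19, -3.88 and -3.58 at C1, and at -1.56, -1.40, -0.85, -1.39 and -1.08 at C2. Every C2 array was above every NC1 and C1 array, and NC1 and C1 overlapped. The rise from C1 to C2 was 5.02-fold (log2 2.33, interval 1.91 to 2.75, adjusted p = 4.20e-08), that from NC1 4.26-fold (log2 2.09, adjusted p = 1.09e-07). C1 minus NC1 was -0.24 (interval -0.66 to 0.18, adjusted p = 0.624). Within slides C2 minus C1 lay between 1.63 and 2.73, and without C1 replicate 4 it was 2.25.

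Ptger4, the other receptor of prostaglandin E that couples to cAMP, was at the limit of the arrays. Its probe was above background on 1 of 15 arrays, C2 replicate 1, with intensities from 17.1 to 101.7 overall. The mean ± SD (n = 5) was -5.64 ± 0.64 for NC1, -5.27 ± 1.08 for C1 and -4.56 ± 0.41 for C2. These values set no order between the stages, and no fold is given.

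Ptgfr, the receptor of prostaglandin F, known for its part in the regression of the corpus luteum, was the member with the largest difference between NC1 and C1. Its NC1 arrays stood at -6.53, -6.62, -5.26, -6.75 and -5.82, none above background. Its C1 arrays stood at 0.50, 0.98, -0.71, 0.27 and 1.30 and its C2 arrays at -1.34, -1.97, -1.76, -0.38 and -0.56, all above background. All adult arrays thus lay far above all juvenile ones, and C1 and C2 overlapped only through C1 replicate 3. The C1 signal was at least 36.6-fold higher than at NC1 and the C2 signal at least 11.5-fold higher, with no p given, since the probe was kept for its adult signal. With normexp background correction these log2 bounds of 5.19 and 3.52 became 3.89 and 2.39. From C1 to C2 Ptgfr fell 3.18-fold (log2 -1.67, interval -2.53 to -0.81, adjusted p = 0.00221), and within slides this difference lay between -3.07 and -0.63. The fall was -1.36 (adjusted p = 0.0163), no longer called, with scaling by the median of all probes.

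Other genes higher at C1 than NC1 included markers of luteal cells, where Ptgfr is known to be high. Of 9 such markers, 7 were valid at every stage and 6 of these rose from NC1 to C1, where 1.75% of all probes rose, such as Prlr, the prolactin receptor (log2 3.03), and Cyp11a1, which starts steroid synthesis (log2 5.46). Their summed signal, as a multiple of the array median, ranged from 99.95 to 153.1 at NC1, from 176.5 to 237.8 at C1 and from 296.3 to 404.0 at C2. From C1 to C2, however, only Akr1c18 of the 7 was called higher (mean 1.92 to 7.08), Prlr was lower (log2 -1.45) and 5 were not called. Over all probes, 25.4% were called higher and 22.2% lower at that step. Lhcgr was above background on no NC1 array, on all C1 arrays (mean -1.13) and on 3 C2 arrays (mean -3.96). Red blood cell markers went the other way, with 3 of 4 valid genes lower at C1, where 0.768% of all probes were, and a summed signal of 70.4 to 411.9 at NC1 and 10.2 to 42.3 at C1. Their part in the Ptgfr result was not tested.

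For clearance, Hpgd, the dehydrogenase that inactivates prostaglandins, was lower at each later stage on average. It stood at 2.41, 2.43, 1.92, 1.56 and 1.98 at NC1, at 1.02, 1.89, 1.55, 0.55 and 1.11 at C1, and at -2.09, -1.77, -1.59, -1.30 and -1.14 at C2. NC1 and C1 overlapped, and all C2 arrays lay below both. Hpgd fell 6.99-fold from C1 to C2 (log2 -2.80, interval -3.32 to -2.29, adjusted p = 5.13e-08) and 12.5-fold from NC1 (log2 -3.64, interval -4.15 to -3.13, adjusted p = 1.64e-09). C1 minus NC1 was -0.83 (interval -1.35 to -0.32, adjusted p = 0.0597) and was not called. The dimmer probe, above background on 3 of 5 C2 arrays, gave -3.52 from C1 to C2 and -0.83 from NC1 to C1 in the wider set. Within slides C2 minus C1 lay between -3.64 and -2.09 for the brighter probe, and without C1 replicate 4 that difference was -2.97. C1 minus NC1 of the brighter probe was -0.67 (adjusted p = 0.125) without that array.

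Slco2a1, the prostaglandin carrier, moved opposite to Hpgd. It stood at -1.45, -1.71, -1.60, -1.64 and -2.51 at NC1, at -0.46, -1.03, -1.14, 0.86 and -0.41 at C1, and at 1.58, 1.54, 1.05, 1.53 and 1.19 at C2. The 3 stages did not overlap, with C1 replicate 4 the closest to C2. Slco2a1 rose 3.52-fold from C1 to C2 (log2 1.82, interval 1.18 to 2.45, adjusted p = 6.83e-05) and 8.95-fold from NC1 (log2 3.16, interval 2.52 to 3.80, adjusted p = 1.17e-07). C1 minus NC1 was 1.35 (interval 0.71 to 1.98, adjusted p = 0.0130), not called although the groups were apart. Without C1 replicate 4 the first step was 1.02 and was called (adjusted p = 0.00896), and the second was 2.14. The first step was also called without C1 replicate 2 (1.49, adjusted p = 0.00918) or 3 (1.52, adjusted p = 0.00641).

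**Figure D3:**
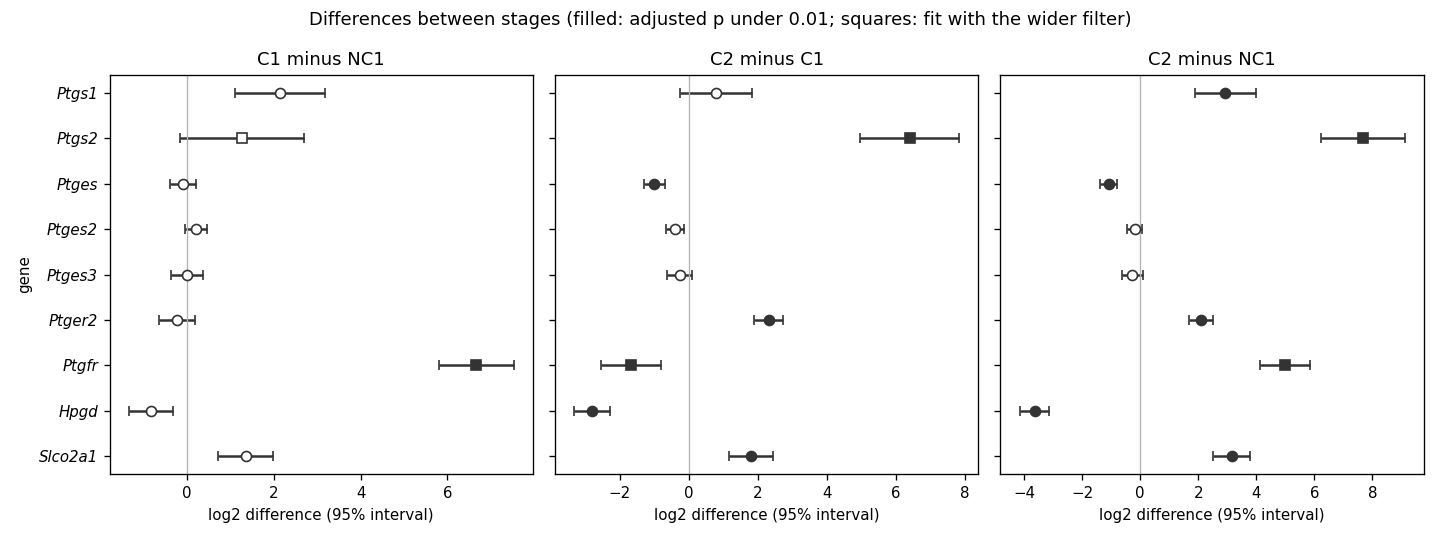
Log2 differences between stages with 95% intervals from the limma fit over 15 arrays, for the 9 prostaglandin genes that could be tested, filled where the adjusted p was under 0.01. Squares mark Ptgs2 and Ptgfr, fitted in the wider probe set with arrays below background and kept for the stages where they are high, so that their NC1 contrasts, and C2 minus C1 of Ptgs2, are a description and no bounds. For these contrasts the filling of a square is not a test result either. At C2, Ptgs2, Ptger2 and Slco2a1 lie to the right of 0 and Ptges, Ptgfr and Hpgd to the left in the comparison with C1.

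The supply of arachidonic acid was followed with 20 further genes, of which 19 were on the array and 7 valid at every stage. From C1 to C2, 3 rose, 1 fell and 3 were not called (median log2 difference 0.24, against 0.02 over all probes, of which 25.4% rose and 22.2% fell). Acsl4, which ties arachidonic acid to coenzyme A, rose at both steps, from 1.15 ± 0.27 (SD, n = 5) over 3.22 ± 0.27 to 5.56 ± 0.08. Lpcat3, which puts arachidonate back into phospholipids, rose at C2 (log2 1.30), as did Pla2g6 (log2 0.48), a calcium-independent phospholipase, whereas Pla2g12a, a secreted phospholipase, fell (log2 -1.77). Pla2g4a, the cytosolic phospholipase that serves cyclooxygenases, was not called, with -0.31 from NC1 to C1 and 0.24 from C1 to C2. Mgll, the lipase of monoacylglycerols, was called between NC1 and C1 (log2 1.67, adjusted p = 0.00905) with overlapping arrays. Pla2g1b was above background on no C2 array and at least 2.80-fold higher at C1. Pla2g5, another secreted phospholipase, was above background on 5 NC1, 5 C1 and 2 C2 arrays, with means of -1.74, -0.29 and -4.80, and was not tested.

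Synthases of other prostanoids were more often valid, with 9 of 11 genes. From NC1 to C1, 4 rose and none fell (median log2 difference 1.09, against -0.03 over all probes, of which 1.75% rose and 0.768% fell). From C1 to C2, 4 rose and 2 fell, where 25.4% of all probes rose and 22.2% fell. Ptgds, which makes prostaglandin D, rose by 1.09 and then fell by 2.59 on the log2 scale. Ptgis, the prostacyclin synthase, fell at C2 (log2 -3.27), from 4.73 ± 0.13 (SD, n = 5) to 1.46 ± 0.10. Of the reductases in this list, only some of which are known to make prostaglandin F, Akr1b7 rose at C2 (log2 4.45), Akr1b8 rose at both steps (log2 1.12 and 3.51), Cbr3 rose at C2 (log2 1.63) and Prxl2b at C1 (log2 1.28). Of the others, Akr1b3 was not called at C2 (log2 -0.53, adjusted p = 0.0376), although its C2 arrays lay below its C1 arrays, and neither was Cbr1 (log2 0.12, adjusted p = 0.333). Akr1c18 rose most (log2 5.59 and 5.16) and is best known as the enzyme that inactivates progesterone, for which it also stands among the luteal markers.

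**Figure D4:**
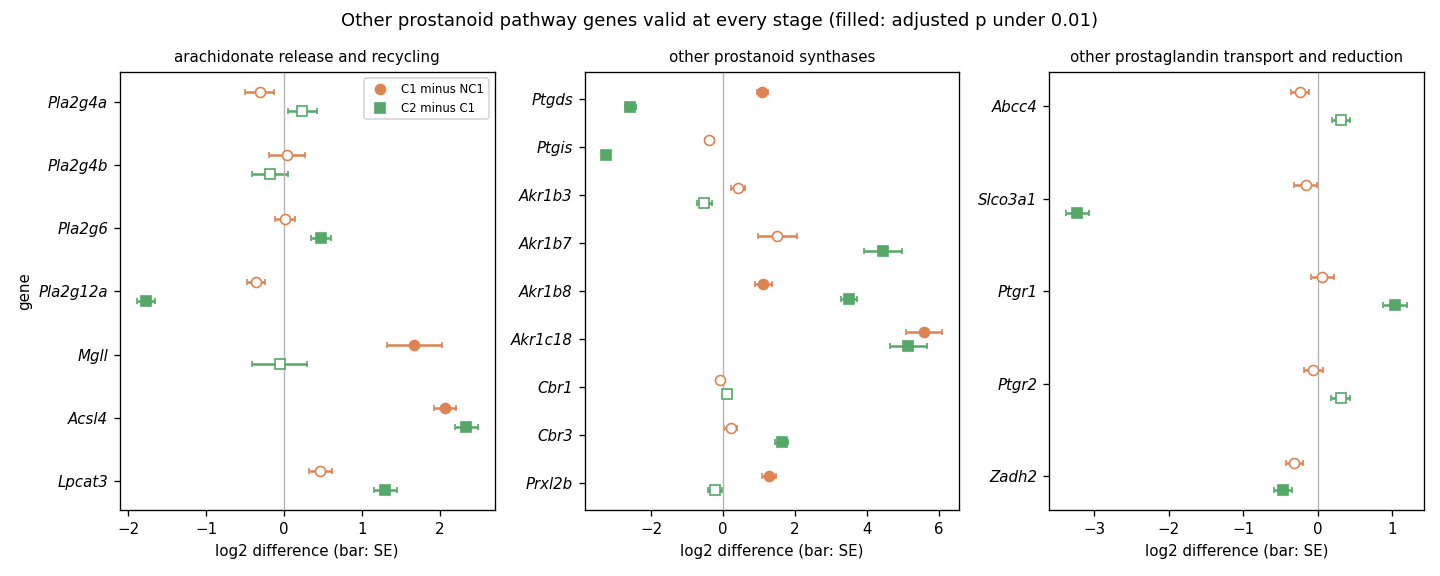
Log2 differences with SE for the other prostanoid pathway genes valid at every stage, in 3 lists, for C1 minus NC1 (circles) and C2 minus C1 (squares), filled where the adjusted p was under 0.01. Akr1c18 and Acsl4 lie to the right of 0 at both steps, and Ptgis, Slco3a1, Ptgds and Pla2g12a lie to the left for C2 minus C1.

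Of 6 further prostanoid receptors, 0 were valid at every stage. Ptger3, the receptor of prostaglandin E that lowers cAMP, was above background on all NC1 and C1 arrays and on no C2 array, so that it exceeded C2 at least 4.31-fold at NC1 and at least 2.05-fold at C1. Ptgdr2, a receptor of prostaglandin D, was above background on 5 NC1, 1 C1 and 0 C2 arrays, and at least 2.19-fold higher at NC1 than at C2. Ptger1 and the thromboxane receptor Tbxa2r were above background on at least 1 array of each stage, and Ptgdr and Ptgir on none. Of 5 further genes for transport and reduction, all were valid, and from C1 to C2 the reductase Ptgr1 rose (log2 1.03), while the carrier Slco3a1 (log2 -3.22) and the reductase Zadh2 (log2 -0.47) fell. The efflux pump Abcc4 gave 0.31 and Ptgr2 0.31, neither called.

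Markers of the cumulus cells themselves and of other cells moved with the step to C2 and stand here beside the results. Against the 25.4% of all probes that rose and the 22.2% that fell, granulosa and cumulus markers were lower for 7 of 8 genes, with a summed signal of 219.6 to 260.2 at C1 and 44.7 to 56.7 at C2. Theca and stroma markers were lower for 5 of 5 valid genes, from 9.30 to 15.5 at C1 and from 0.501 to 0.731 at C2. Oviduct epithelium markers summed to 3.97 to 7.04 at C1 and to 15.9 to 20.6 at C2, with 1 of 4 valid genes higher (Krt18), 2 lower and Pax8 above background on no array. Leukocyte markers were higher for 2 of 6 valid genes (4.38 to 5.54 against 4.62 to 7.31), and of the platelet markers Pf4 was higher, whereas Gp9 and Gp1ba were above background on no array. Of 2 valid endothelial markers Cdh5 was higher and Kdr was not called (log2 0.09). Emcn was above background on 4 C1 and 0 C2 arrays (means -3.56 and -6.11), Vwf on 3 and 1 (means -3.97 and -5.02), Tie1 on 1 and 0, and Tek on no array. Oocyte markers ranged from 12.9 to 40.4 at C1 and from 0.699 to 17.1 at C2. Ptgs1 was called only from NC1 to C2, where 51.5% of all probes were called. In that comparison, leukocyte markers were higher for 4 of 6 valid genes (median log2 difference 1.25). The 1 valid platelet marker was higher as well (log2 2.65). The part of these cell types in the C2 results, including that of platelets and leukocytes in the level of Ptgs1, was not tested.

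Ptgs2 is set here beside the 6 cumulus expansion genes, of which only Tnfaip6 was valid at every stage. Tnfaip6, which links the expanded matrix, rose from C1 to C2 (log2 6.43, and 7.64 without C1 replicate 4), and stood at 2.70 in C1 replicate 4 against -3.77 to -2.90 on the other C1 arrays. Ereg, an EGF-like ligand that drives expansion, was above background on no NC1 array and at least 19.9-fold higher at C2. Areg, a related ligand, was at least 2.22-fold higher at C2 than at NC1. In C1 replicate 4, Ereg (1.19) and Areg (-2.37) stood above their C2 means (-0.41 and -3.57), whereas Ptgs2 (-1.88) stood below its C2 mean (1.04). C2 values of Has2, Ptx3 and Btc are not given here.

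For members whose stage means spanned at least 2 log2 units, the genes with the most similar pattern were sought among 19016 named probes, by the root mean square of the difference over 15 arrays after centring each probe. A probe of Tnfaip6 was nearest to Ptgs2 (0.53), followed by Rnf125 (0.83) and Krt23 (0.87). Nearest to Ptger2 were Gulp1 (0.23), C81189 (0.24) and Ccdc66 (0.25), and to Hpgd Ptprt (0.28), Rbfox1 (0.29) and Nlrc5 (0.32). Nearest to Slco2a1 were Gm2562 (0.35), Gm2563 (0.36) and Camk2n2 (0.36), and to Ptgs1 Nr1h4 (0.57), Edn2 (0.64) and 9330199F22Rik (0.69). Ptgfr had no gene as near, with Mmel1 at 1.00, Apln at 1.03 and Star, the luteal marker that carries cholesterol into mitochondria, at 1.09. Distances of Ptgfr and Ptgs2 take in arrays below background, and their stage means spanned 6.66 and 7.68, against 2.33 to 3.64 for the other members. The sizes of these distances are therefore not comparable between members. The Tnfaip6 probe, like Ptgs2, was above background on 0 NC1 and 1 C1 arrays.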

How the data were processed

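Each array held Cy3-labelled RNA of 1 pool. The authors deposited scanner output of Agilent's Feature Extraction (10.5.1.1 per the labels, 10.7.1.1 in the files), with background-subtracted intensity per spot on a linear scale and flags for outliers and signal above background, and a table of log2 values whose columns equal log2 intensity plus 1 constant per array. Per the file headers, the flags used here are coded as 0 and 1. From the intensity, control spots and 1655 flagged spot values were left out, spots of a probe were averaged, log2 was taken and the median of the 17323 valid probes was subtracted on each array. Saturation was flagged on 0 spots. Names came by accession from RefSeq (26055 probes) or from the deposited table alone (2770), while 10604 probes had no name here. Stages were compared with limma 3.58.1 in R 4.3.3 by 1 model over 15 arrays, which replaces the one-factor test of the methods, two-sided, with Benjamini-Hochberg adjustment at 0.01 over all probes of the set. The fit was tested on simulated data. A gene is counted by its probe with the highest mean over all arrays.

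A fold given as "at least" sets the bright stage's mean against, per array of the dim stage, the higher of the probe's own signal and the lowest signal of any probe well above background. The number of arrays limits the precision.

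The members, lists and tests were chosen with earlier results of these data known. Named are all members, the pathway genes called in the comparison described with the largest differences of each list, and the 3 genes nearest to each member. From the lists, 1 phospholipase and 2 markers were not analysed here. Alternatives were other scalings, normexp (offset 50, run on median signals because the mean signal was not in the files used), the deposited table, other filters, tests, blocks and thresholds, and leaving out each array.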

Additional observations from a re-analysis of the deposited data

Results flagged for a closer look

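In 2 of 42 groups of 5 arrays of a probe, 1 array lay far from the other 4, where chance alone marks about 5% of groups. Ptgs2 in C1 replicate 4 stood at -1.88, against -6.73 to -5.57 on the other C1 arrays. The same array was the highest of C1 for Slco2a1 (0.86, against -1.14 to -0.41) and the lowest for Hpgd (0.55, against 1.02 to 1.89) and Ptger2 (-3.88, against -3.82 to -3.19), and it was also the highest for Ptx3, Areg, Ereg and Btc. Has2, which makes hyaluronan, lay within the other C1 arrays (-2.59, against -5.02 to -2.42). Slco2a1 in NC1 replicate 5 stood at -2.51, against -1.71 to -1.45 on the other NC1 arrays, and was above background there. What sets these arrays apart was not tested.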

How the results depend on the processing

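Of 816 alternatives for single members, 780 kept direction and side of the threshold, 13 changed sign without a call on either side, 4 lost a call, 16 gained one and 3 moved a bound. The calls between C1 and C2 (3 to 6 of the genes tested), between NC1 and C2 (5 to 7) and over any stage (5 to 7) stayed within 1.5 times their counts of 4, 5 and 5. Between NC1 and C1, 0 of 7 genes became 1 with the median over all probes, the deposited table, the wider filter or no filter, and 2 with spike-in scaling or an adjusted p of 0.05; leaving out single arrays gave 0 to 1. In the wider set the count of 1 became 2 with the median over all probes, spike-in scaling or the deposited table and 3 at an adjusted p of 0.05, and leaving out single arrays gave 1 to 2. The genes gained were Ptgfr with the wider or no filter, and otherwise Ptgs1, Slco2a1 or both. Ptges2 gained a call between C1 and C2 with the 75th percentile, quantile normalization, an adjusted p of 0.05, or without NC1 replicate 2 or C1 replicate 3. The changes of sign were Ptges3 from NC1 to C1 (0.011 with the 75th percentile, 0.0022 with quantile normalization, 0.15 with spike-in scaling, 0.095 with slide as a block, and without NC1 replicate 3, 4 or 5 or C1 replicate 2, where leaving out single arrays gave -0.097 to 0.10), Ptges3 from C1 to C2 (0.047 with both the all-probe scaling and the deposited table), Ptges2 from NC1 to C2 (0.021 and 0.020 there) and Ptges from NC1 to C1 (0.064 with spike-in scaling). The causes were not tested. The typical valid probe shifted by -0.14 from NC1 to C1 and by 0.33 from C1 to C2 when all probes set the scale, and by 0.13 and -0.13 with spike-in scaling. Ptges and Ptgfr lost their call between C1 and C2 with the all-probe scaling and with the deposited table. With the mean of its probes the fall of Ptges was -1.74. With normexp the log2 bounds fell from 5.76 to 4.49 for Ptgs2 at C2, and for Ptgfr from 5.19 to 3.89 at C1 and from 3.52 to 2.39 at C2. Replicate numbers did not pair the arrays (correlation of deviations -0.24 to 0.35, median 0.00217, over 15 pairs), and with the replicate block the counts of called genes were 0, 4 and 5.

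Signal over background limits Ptger4, the NC1 levels of Ptgs2 and Ptgfr, the C1 level of Ptgs2, and the C2 level of the dimmer Hpgd probe.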
